A study of Macaca fascicularis with 6 samples.

Results

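Classical monocytes of the lung were examined here as the cells of 6 cynomolgus monkey lungs that held VCAN together with other genes of this cell type. The cells were chosen by their own counts. A quality-controlled cell (more than 500 and fewer than 5000 genes, and at most 25% of its UMIs in 13 mitochondrial genes) was taken as a member when it held at least 1 UMI of VCAN and at least 2 of the 6 genes CD14, PTX3, SERPINB10, CFP, EREG and S100A8. It could hold at most 1 of the macrophage genes C1QA, C1QB, MARCO and FABP4 and at most 1 of the nonclassical monocyte genes PLD4, VMO1, MS4A7 and AMDHD1, and no UMI of CXCR1, CD3D, CD3E, MS4A1 or CLEC9A, which mark neutrophils, T cells, B cells and a type of dendritic cell. These criteria selected 1457 of 25388 quality-controlled cells.

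All 6 monkeys were male and 3 to 5 years old, and 1 droplet-based 3′ library was made from the lung of each. The asthma group (replicates 8, 10 and 11) was sensitized under the skin with Ascaris suum antigen mixed with adjuvant and then challenged through the nose with A. suum solution, and the control group (replicates 1, 2 and 3) received saline in the same way. The paper reports airway tests with rising doses of nebulized methacholine in both groups, and the lungs were sampled after these tests. Lungs of both groups were digested with collagenase and papain in a warm bath, red cells were lysed and dead cells were removed with beads, and the labels name no sort of cell types. Values of single libraries are given below in the order control 1, 2 and 3 and then asthma 8, 10 and 11, and n is 3 libraries in each group. The members numbered 213, 266 and 244 in controls and 167, 168 and 399 in asthma.

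Classical monocytes are made in the bone marrow, circulate in blood and enter tissue, where some become macrophages or antigen-presenting cells. They sense microbes and damaged tissue through CD14 and Toll-like receptors, store the calcium-binding alarmins S100A8 and S100A9, and answer with interleukin-1 beta, chemokines and prostaglandins. In the lung they lie beside resident alveolar macrophages, and in allergic airway disease recruited monocytes are one source of new macrophages and of cells that present antigen to T cells.

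The rule took in more than 1 kind of cell. UMIs per member fell into separate ranges, one around the median of 1065 UMIs and one around the median of 7592 UMIs, and only 5 to 31 members of a library lay between 2000 and 4000 UMIs. Members under 2000 UMIs, called shallow members, numbered 50, 100 and 45 in controls and 100, 115 and 49 in asthma, which was 12.3 to 68.5% of the members of a library. Their share of the members was lowest in asthma 11 and highest in asthma 8 and 10, where they were the larger part. Members with at least 2000 UMIs were called core members if they held at least 4 of the myeloid genes TYROBP, LYZ, CYBB, SPI1, FCER1G and LAPTM5, at most 2 of the connective tissue genes COL1A1, COL1A2, COL3A1, DCN, LUM and COL6A2, and at most 1% of their UMIs in 8 epithelial and mesothelial markers. Core members numbered 155, 161 and 193 in controls and 57, 48 and 335 in asthma, 949 in all. The remaining 49 deep members failed at least 1 of these criteria and numbered 8, 5 and 6 in controls and 10, 5 and 15 in asthma. This split was made after the counts were seen, and the results below are for core members unless all members are named.

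**Figure D1:**
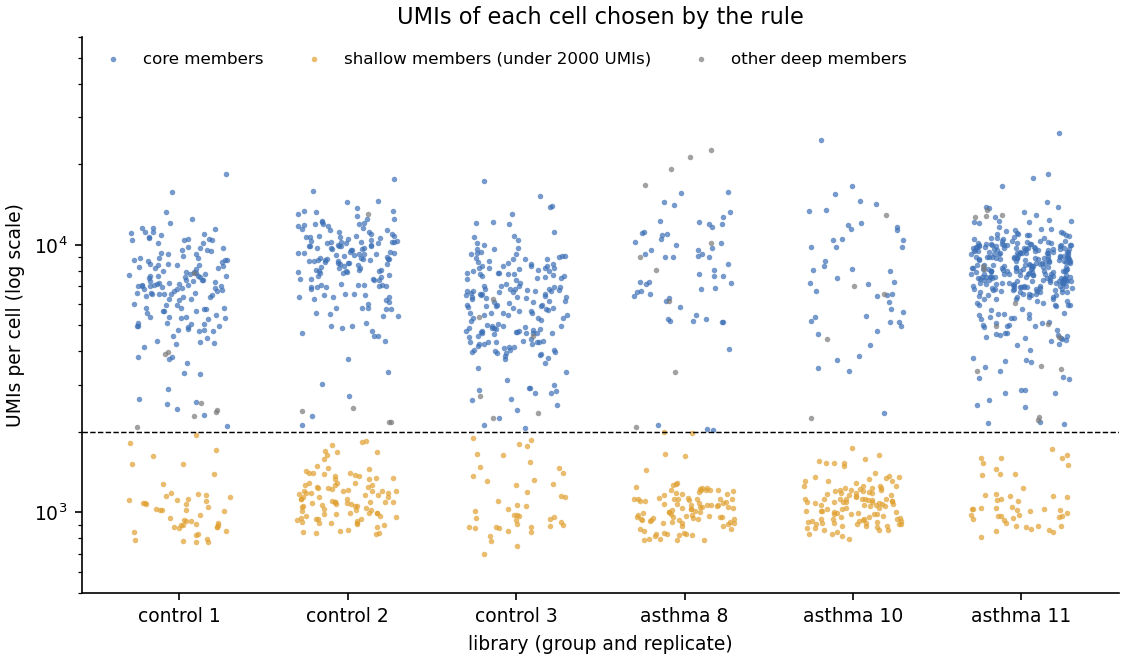
UMIs of each of the 1457 members (vertical axis, log scale) in the 6 libraries (horizontal axis), coloured as core, shallow and other deep members, with a dashed line at 2000 UMIs. The members of every library form an upper and a lower band, and the lower band holds most members of asthma 8 and asthma 10.

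LYZ and HLA-DRA, which the rule did not use, were found in the core members of every library, but neither is particular to classical monocytes. LYZ, which encodes the bactericidal enzyme lysozyme, stood at 14975, 13640.5 and 14816.5 in controls and 11694, 10056 and 11846 in asthma, in UMIs per 1000000 UMIs summed over the core members of a library (CPM). HLA-DRA, a chain of the MHC class II molecule that presents antigen, stood at 3366, 4098 and 4558 CPM in controls and 3899, 6098.5 and 4406 in asthma. HLA-DRA was higher in nonclassical-type monocytes, described below, at 8568 against 4274 CPM over the 6 libraries together, and LYZ was 1 of the 6 myeloid genes of the split into core and other members. At least 1 UMI of HLA-DRA, HLA-DPA1 or HLA-DPB1 was found in 96.9 to 99.4% of the core members of a library.

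The shallow members went against the label. Their LYZ level was 1189.9 CPM over the 6 libraries together, against 13053 CPM in core members, and their HLA-DRA level was 228 CPM against 4274. They held the neutrophil genes CSF3R, the receptor for granulocyte colony-stimulating factor, at 2325 against 145 CPM. MMP25, a membrane-bound protease of neutrophils, stood at 616 against 25.7 CPM, and PADI4, the enzyme that citrullinates histones in neutrophils, stood at 403 against 11.2 CPM. MMP9, the gelatinase of neutrophil granules, stood at 446.5 against 5.17 CPM. The genes highest in shallow relative to core members also included PI16, HOPX and LTB, at 1316 against 8.71, 2039.5 against 24.2 and 1326 against 15.8 CPM. Neutrophil-type cells, 592 cells set apart by CXCR1 and at least 1 of CSF3R, MMP25 and CMTM2, held MMP9 at 244.5 CPM and IL1R2, the decoy receptor of interleukin-1, at 214 CPM, against 446.5 and 362 CPM in shallow members. HLA-DRA was at 1885 CPM in neutrophil-type cells, above shallow members, so the classes were not alike in every gene. The median UMI count of neutrophil-type cells was 1055, close to the 1065 of the shallow members, and the median mitochondrial share of the shallow members ran from 0.13 to 1.68% of UMIs against 2.72 to 5.12% in core members. CXCR1 is listed with no UMI in any member because the rule required it, so its level says nothing on whether shallow members are neutrophils. VCAN, CD14 and S100A8, which the rule counted for a cell, were at least as high in shallow as in core members, at 2159.5, 1267 and 11435 CPM, while SERPINB10 and EREG were at 13.8 and 23.6 CPM against 267 and 289.8.

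**Figure D2:**
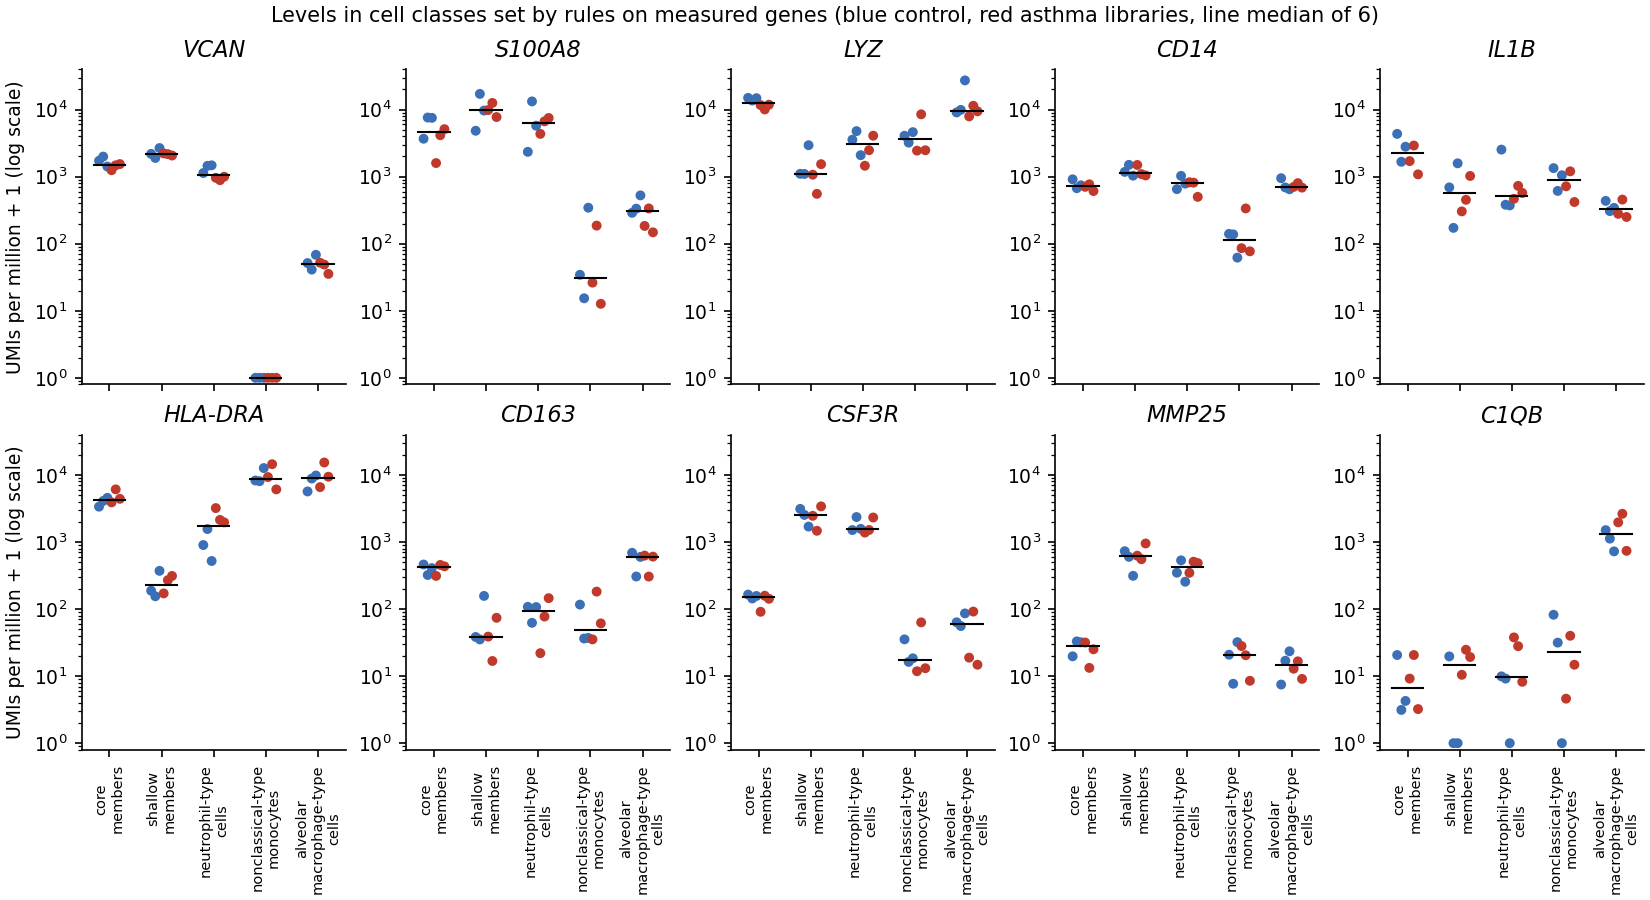
Level of 10 genes in CPM plus 1 (vertical axes, log scale) in core members, shallow members and 3 classes set by rules on other genes (horizontal axes), with 1 point for each library and a line at the median of 6. Core members stand apart from shallow members in LYZ, HLA-DRA and CD163, and shallow members lie beside neutrophil-type cells in CSF3R and MMP25. VCAN, S100A8, CD14 and C1QB entered the rule of the members, and CSF3R and MMP25 that of the neutrophil-type cells.

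The 49 other deep members failed different criteria, some of them more than 1. Too few myeloid genes were found in 7, 5 and 5 in controls and 8, 3 and 5 in asthma, more than 2 connective tissue genes in 2, 1 and 1 in controls and 8, 3 and 4 in asthma, and over 1% of UMIs in epithelial and mesothelial markers in 0, 1 and 0 in controls and 3, 0 and 9 in asthma, where asthma 11 held most. Their high levels of connective tissue genes follow from the split and differed widely between libraries, with COL1A1, a chain of type I collagen, from 28.9 to 18599 CPM. The complement gene C3, which the split did not use, stood at 0 to 6552 CPM over the libraries in them and at 2.45 to 20.5 CPM in core members, and was higher in them in 5 of 6 libraries. Of the deep members of a library they made up 4.91, 3.01 and 3.02 percent in controls and 14.9, 9.43 and 4.29 in asthma, so their part was largest in asthma 8 and asthma 10. The part of cells carrying RNA of 2 cell types was not tested beyond a doublet score, which removed 43 members, 18 of them core members.

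Cells with 1 to 3 of the positive genes had medians under 2000 UMIs, and the median rose steeply between 3 and 4 genes. The number of genes found in a cell also depends on its UMIs, so the counts below are not independent of depth. Cells that passed every other criterion but held exactly 1 of the 6 positive genes numbered 373, with a median of 1274 UMIs and LYZ at 972 CPM. Members with exactly 2 numbered 367, with a median of 1109 UMIs and LYZ at 3346 CPM, and 145 of them held a single UMI of VCAN. With exactly 3 there were 287 members, with a median of 1688 UMIs and LYZ at 8497 CPM. With exactly 4 there were 290, with a median of 7257.5 UMIs and LYZ at 11792 CPM. Members with all 6 numbered 185, with a median of 7886 UMIs and LYZ at 15885 CPM. Between quality-controlled cells of different libraries 82 barcodes were shared over all 15 pairs of libraries, and none was shared between members.

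Relative to all other quality-controlled cells, core members were higher in genes of an alarmin, of enzymes, of secreted factors and of sensors of microbes that lay outside the rule. These levels describe cells that the rule chose by measured genes, so no test is given, and in this 3′ assay each molecule is counted once and no length is divided out. S100A9 stood at 5564 against 418.5 CPM, the core members first and the other cells second. PTGS2, the cyclooxygenase that starts prostaglandin synthesis on stimulation, stood at 334 against 29.7 CPM. THBS1, the adhesive matrix protein thrombospondin 1, had 346 against 27.9 CPM. NRG1, a growth factor of the epidermal growth factor family, had 123 against 5.57 CPM. IL1B, the cytokine interleukin-1 beta, was at 2121 against 309 CPM. PLBD1, a phospholipase B domain protein of myeloid cells, was at 1070.2 against 143 CPM, QPCT, the enzyme that forms pyroglutamate on chemokines, at 146 against 16.3 CPM, and NAIP, a cytosolic sensor of bacterial flagellin and secretion systems, at 88.1 against 10.1 CPM. FCAR, the receptor for IgA, NLRP3, the sensor of the inflammasome that matures interleukin-1 beta, and F13A1, the clotting factor XIII subunit, stood at 165 against 21.4, 167 against 22.2 and 128 against 14.99 CPM. All 11 were higher in core members than in other cells in each of the 6 libraries. The genes with the most UMIs in core members were LYZ, the ferritin chains FTL and FTH1, the filament protein VIM, the actin-binding TMSB10, the elongation factor EEF1A1, ACTB, S100A4, TPT1 and S100A6, with means over libraries from 5665 CPM for S100A6 to 12838 CPM for LYZ.

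Nonclassical-type monocytes, 664 cells chosen by PLD4, VMO1, MS4A7 and AMDHD1 with VCAN at 0, also held genes of plasmacytoid dendritic cells, so the class was mixed. Its levels are compared with those of core members in genes that neither rule used. S100A9 was at 5564 against 83.7 CPM, core members first. THBS1 was at 346 against 7.79 CPM, FCAR at 165 against 16.8 CPM, the haptoglobin receptor CD163 at 405 against 70.1 CPM, CSF3R at 145 against 21.04 CPM and CXCL8, the main neutrophil chemokine, at 780.01 against 128 CPM, all higher in core members. In the other direction TCF7L2, a transcription factor of nonclassical monocytes, stood at 49.6 against 375 CPM. Of the genes of plasmacytoid dendritic cells, LILRA4 was at 8.44 against 141 CPM, TCF4 at 19.1 against 164 CPM and GZMB at 110.4 against 671 CPM. Against 1779 alveolar macrophage-type cells, core members were higher in the checkpoint ligand VSIR, at 511 against 32.5 CPM, and in TIMP1, the inhibitor of matrix metalloproteinases, at 603.5 against 51.7 CPM. The macrophage chemokine CCL18 was at 40.6 against 2498 CPM and the apolipoprotein APOE at 676 against 14833 CPM, both lower in core members over the 6 libraries together. Between libraries of core members APOE ran from 123 to 5121 CPM, highest in asthma 10. CD163 was present in both classes, at 405 and 549.8 CPM.

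Core members varied among themselves in the alarmins and in the inflammatory genes. To compare cells at equal depth, each core member was reduced to 2000 UMIs drawn at random. The median cell then held 4, 11 and 11 in controls and 1, 5.5 and 7 in asthma of S100A8 (in UMIs). For IL1B, it held 7, 2 and 5 UMIs in controls and 3, 4 and 1 in asthma. The lowest median of S100A8 was that of asthma 8 and the lowest median of IL1B that of asthma 11. Within each library, cells with more S100A8 held more S100A9, with a rank correlation over cells of 0.82 to 0.89, and more LYZ, with 0.34 to 0.55, and they held less HLA-DRA, with -0.68 to -0.09. S100A8 and IL1B had no common sign over the libraries (-0.19 to 0.28). IL1B went with PTX3, the soluble pattern receptor pentraxin 3, at 0.08 to 0.36, with CXCL8 at 0.07 to 0.28 and with EREG, the growth factor epiregulin, at 0.06 to 0.34. These correlations are descriptions over 48 to 335 cells of 1 library each, whose points share that library, the total of 2000 UMIs and a rule that used S100A8, PTX3 and EREG, and values near 0.1 in such sparse counts are no finding.

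The rule required VCAN, counted CD14, PTX3 and SERPINB10 and left out cells with CD3D or CD3E, so the shares of core members with these genes and their contrast with T cells are in part set by it and are given as a description. After reduction to 2000 UMIs, IL1B was found in 97.4, 79.5 and 89.1 percent in controls and 73.7, 87.5 and 66.9 in asthma of core members, against 3.07 to 7.80% of cells with CD3D or CD3E in the same libraries, which should lack it and stood at 3263 to 4854 UMIs per cell before thinning. CD14 was found in 78.1, 65.8 and 68.9 percent in controls and 75.4, 66.7 and 61.8 in asthma, against 4.74 to 8.84% in those T cells. PTX3 was found in 78.1, 49.1 and 66.3 percent in controls and 43.9, 54.2 and 31.3 in asthma, the highest in control 1 and the lowest in asthma 11. SERPINB10, a protease inhibitor of monocytes, was found in 34.2, 27.3 and 40.4 percent in controls and 29.8, 20.8 and 35.8 in asthma, against 0.12 to 1.02% in T cells. Without thinning, the shares over all 949 core members were 100% for VCAN, which the rule required, 93.05% for IL1B, 92.5% for CD14, 68.2% for PTX3 and 62.8% for SERPINB10. TNF was found in 3.16% of thinned core members and in 4.70% of thinned T cells, which can make it themselves.

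The first comparison between the groups was the share of these cells in the lung. Members made up 4.72, 7.58 and 6.001 percent in controls and 3.88, 3.56 and 9.33 in asthma of the quality-controlled cells of a library, with means of 6.10% ± 1.43 in controls and 5.59% ± 3.24 in asthma (SD, n = 3). Asthma 11 had the highest and asthma 10 the lowest share, and the groups overlapped. The 95% Wilson interval of asthma 11 ran from 8.49% to 10.2%, and such intervals cover counting error only. The difference of -0.51 percentage points was within the spread between libraries (two-sided exact permutation test over 20 assignments, p = 0.8, where the smallest p the design allows is 0.1). Core members made up 3.44, 4.59 and 4.75 percent in controls and 1.32, 1.02 and 7.83 in asthma of cells, a difference of -0.87 points (exact permutation p = 0.8). Here asthma 8 and asthma 10 lay below every control library and asthma 11 above every control library, and without asthma 11 the difference was -3.09 points (exact permutation p = 0.1, the smallest possible with 3 against 2 libraries). Shallow members made up 1.69% ± 1.005 and 1.97% ± 0.72 of cells (SD, n = 3, exact permutation p = 0.8).

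**Figure D3:**
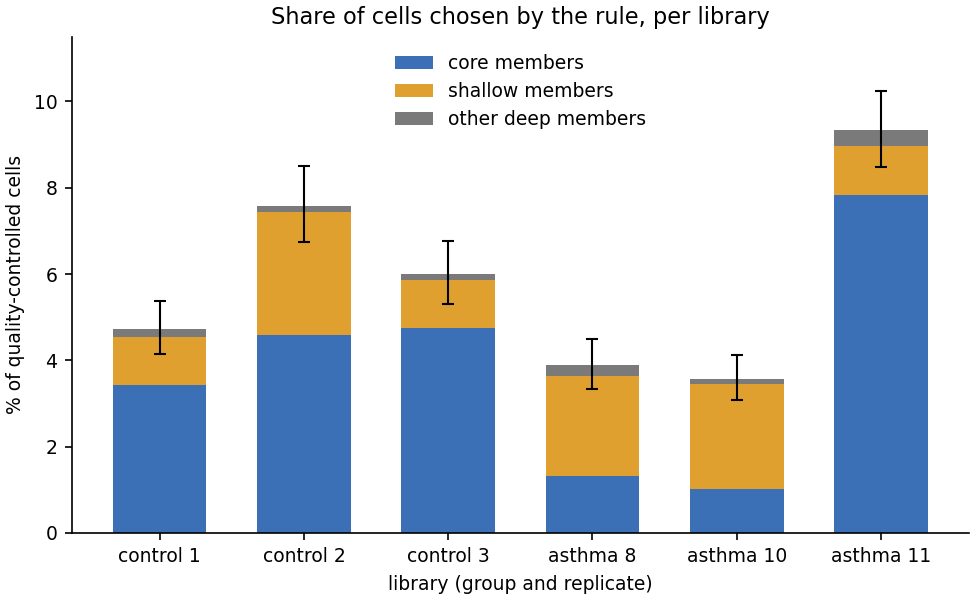
Share of the quality-controlled cells of each library (vertical axis, percent; horizontal axis, library) that were core, shallow and other deep members, stacked from 0, with the 95% Wilson interval of the whole share as an error bar. The part of core members is smaller in asthma 8 and asthma 10 than in every other library, and the tallest bar is asthma 11.

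The second comparison was gene expression of the monocytes in asthma against control. UMIs were summed over the core members of each library, which gave 407313 to 2696126 UMIs per library, and tested across libraries with edgeR's quasi-likelihood test. Of 6817 genes tested, none passed an adjusted p under 0.05 with an absolute log2 fold change over 0.25, in either direction (0% of genes called higher and 0% called lower), and 295 genes (4.33%) had an unadjusted p under 0.05. In 349 genes (5.12%) every asthma library lay above every control library, and in 403 (5.91%) every asthma library lay below. Over all 1457 members, none of 7155 genes passed (0% higher and 0% lower), 319 (4.46%) had an unadjusted p under 0.05, and the groups did not overlap in 361 genes higher in asthma (5.05%) and 416 lower (5.81%). DESeq2, run as another test of the same sums, called 1 gene higher (0.0147%) and 2 lower (0.0293%) in core members, named below, and 3 higher and 3 lower over all members (0.0419% each way). Without the filter on low counts, edgeR called 62 of 14658 genes higher (0.423%) and 55 lower (0.375%) in core members, and 75 of 15557 higher (0.482%) and 17 lower (0.109%) over all members. Levels called scaled CPM below are CPM after TMM scaling, levels called CPM are not scaled, and log2 fold changes are asthma over control from the edgeR fit.

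Among the genes whose asthma libraries all lay under the controls, NDRG2 had the smallest p. NDRG2, a gene regulated downstream of the MYC protein, stood at 60.4, 70.4 and 58.05 scaled CPM in controls and 10.2, 13.2 and 18.2 in asthma in core members. Its log2 fold change was -2.02 (SE 0.25, edgeR adjusted p = 0.0958), which did not pass, while DESeq2 called it with an adjusted p of 0.0031. ANKRD28, a subunit that guides protein phosphatase 6, stood at 223, 119 and 133.5 scaled CPM in controls and 60.9, 68.4 and 35.7 in asthma (log2 fold change -1.63, SE 0.32, edgeR adjusted p = 0.861; called by DESeq2). SLC38A2, a transporter of neutral amino acids that is induced when amino acids are scarce, stood at 176, 169.6 and 173 scaled CPM in controls and 102, 99.96 and 79.9 in asthma, a narrow range in controls with every asthma library below it. Its log2 fold change was -0.91 (SE 0.17, edgeR adjusted p = 0.848). IQCN stood at 40.9, 42.4 and 42.3 scaled CPM in controls and 20.3, 7.89 and 6.07 in asthma, on few UMIs in asthma 10. BAIAP2, an adaptor of the actin cytoskeleton, stood at 49.3, 43.1 and 39.8 scaled CPM in controls and 18.3, 23.7 and 20.3 in asthma. Neither passed (edgeR adjusted p = 0.848 and 0.892). The other genes of this direction with the smallest p were CCDC57, DENND4A, MGST1, CXCL1, EREG, LATS1 and TMEM107, with log2 fold changes from -2.10 for CCDC57 to -0.79 for TMEM107 and an edgeR adjusted p of 0.989 for EREG.

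Among the genes whose asthma libraries all exceeded the controls, NUPR1 had the smallest p. NUPR1, a small chromatin protein induced by cell stress, stood at 108, 74.01 and 55.6 scaled CPM in controls and 274, 274 and 139 in asthma in core members (log2 fold change 1.501, SE 0.32, edgeR adjusted p = 0.892), and DESeq2 called it with an adjusted p of 0.00853. DDIT3, the stress transcription factor CHOP, stood at 100.4, 79.8 and 95.4 scaled CPM in controls and 124, 181.5 and 130.2 in asthma. CXCL10, a chemokine induced by interferon that attracts T cells, stood at 44.6, 68.3 and 53.9 scaled CPM in controls and 128, 584 and 68.5 in asthma, and the value of asthma 11 was close to that of control 2. EIF3L, a subunit of a translation initiation factor, stood at 197, 195 and 229 scaled CPM in controls and 288, 337 and 290.5 in asthma. LYAR, a nucleolar protein, stood at 48.3, 33.8 and 38.98 scaled CPM in controls and 71.1, 89.4 and 60.3 in asthma. P2RX1, a channel opened by extracellular ATP, stood at 2.79, 5.03 and 1.66 scaled CPM in controls and 10.2, 10.52 and 12.5 in asthma, on few UMIs outside asthma 11. None of these passed (log2 fold changes of 0.64, 2.14, 0.56, 0.83 and 1.80, each with an edgeR adjusted p of 0.989). With each library left out, the log2 fold change of CXCL10 ranged from 0.72 to 2.65, lowest without asthma 10. Over all members its groups overlapped, with 43.6, 67.8 and 54.1 scaled CPM in controls and 90.8, 413 and 66.2 in asthma (log2 fold change 1.73). The other genes of this direction with the smallest p were ADIRF, UTP20, SNRNP200, GGA2, TOP1MT and PRELID1, with log2 fold changes from 0.52 for PRELID1 to 2.08 for ADIRF. That of ADIRF in core members ranged from 1.37 to 2.87 with each library left out.

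None of the genes that define the cells passed the test. LYZ stood at 15589.5, 13797.5 and 15069 scaled CPM in controls and 11600.1, 10774 and 11397 in asthma, and every asthma library lay below every control library (log2 fold change -0.40, SE 0.12, edgeR adjusted p = 0.989). S100A8 stood at 3829.5, 7705 and 7664 scaled CPM in controls and 1582, 4445 and 4918 in asthma. S100A9 stood at 3706, 8309.5 and 7622 scaled CPM in controls and 1728.5, 3938 and 4917 in asthma. Both were lowest in asthma 8, with control 1 inside the range of the asthma libraries. VCAN, the matrix proteoglycan versican, stood at 1794, 2015 and 1440.5 scaled CPM in controls and 1237, 1581 and 1482 in asthma. CD14, the co-receptor for bacterial lipopolysaccharide, stood at 949, 679.7 and 755.5 scaled CPM in controls and 699, 823 and 586 in asthma. The level of SERPINB10 was 278, 250.04 and 283 scaled CPM in controls and 236, 187 and 281 in asthma. The groups overlapped in all 3 of these genes (log2 fold changes -0.29, -0.18 and -0.19), and since the rule counted them or required them in a cell, their levels are not independent of it. The same holds for S100A8, CFP, PTX3 and EREG. CFP, which encodes the complement factor properdin, stood at 775, 858 and 789.5 scaled CPM in controls and 845, 458 and 875 in asthma, lowest in asthma 10 (log2 fold change -0.15).

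The inflammatory genes varied widely between libraries of 1 group. IL1B stood at 4527, 1686 and 2844 scaled CPM in controls and 1692, 3119.7 and 1041 in asthma, a mean of 3019 ± 1428.5 in controls and 1951 ± 1063 in asthma (SD, n = 3). PTX3 stood at 2171, 754 and 1163 scaled CPM in controls and 654, 981 and 308 in asthma. CXCL8 stood at 2295, 721 and 959 scaled CPM in controls and 508, 944 and 176 in asthma. In each of these 3 genes control 1 was the highest library and asthma 11 the lowest, and asthma 10 lay above control 2, so the groups overlapped. The log2 fold changes were -0.63 for IL1B, -1.09 for PTX3 and -1.31 for CXCL8, and none passed (edgeR adjusted p = 0.989 for each). With each library left out, the log2 fold changes ranged from -1.15 to -0.22, -1.52 to -0.58 and -1.99 to -0.66 in the same order, each smallest in size without control 1 and largest without asthma 10. PTGS2 stood at 716, 327 and 342 scaled CPM in controls and 372, 163 and 204.5 in asthma (log2 fold change -0.91, edgeR adjusted p = 0.989), and the groups overlapped. Over all members it stood at 729, 371 and 363 scaled CPM in controls and 362, 341 and 214 in asthma, with every asthma library below every control library (log2 fold change -0.68, edgeR adjusted p = 0.94). EREG stood at 952, 315 and 193 scaled CPM in controls and 152, 97.3 and 115 in asthma, with every asthma library below every control library (log2 fold change -2.00, SE 0.51, edgeR adjusted p = 0.989), and asthma 8 was close to control 3. Without control 1 the log2 fold change was -1.07 for EREG and -0.45 for PTGS2. THBS1 stood at 976, 43.8 and 126 scaled CPM in controls and 171, 176 and 403 in asthma, more than 900 in control 1 and under 410 in every other library.

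**Figure D4:**
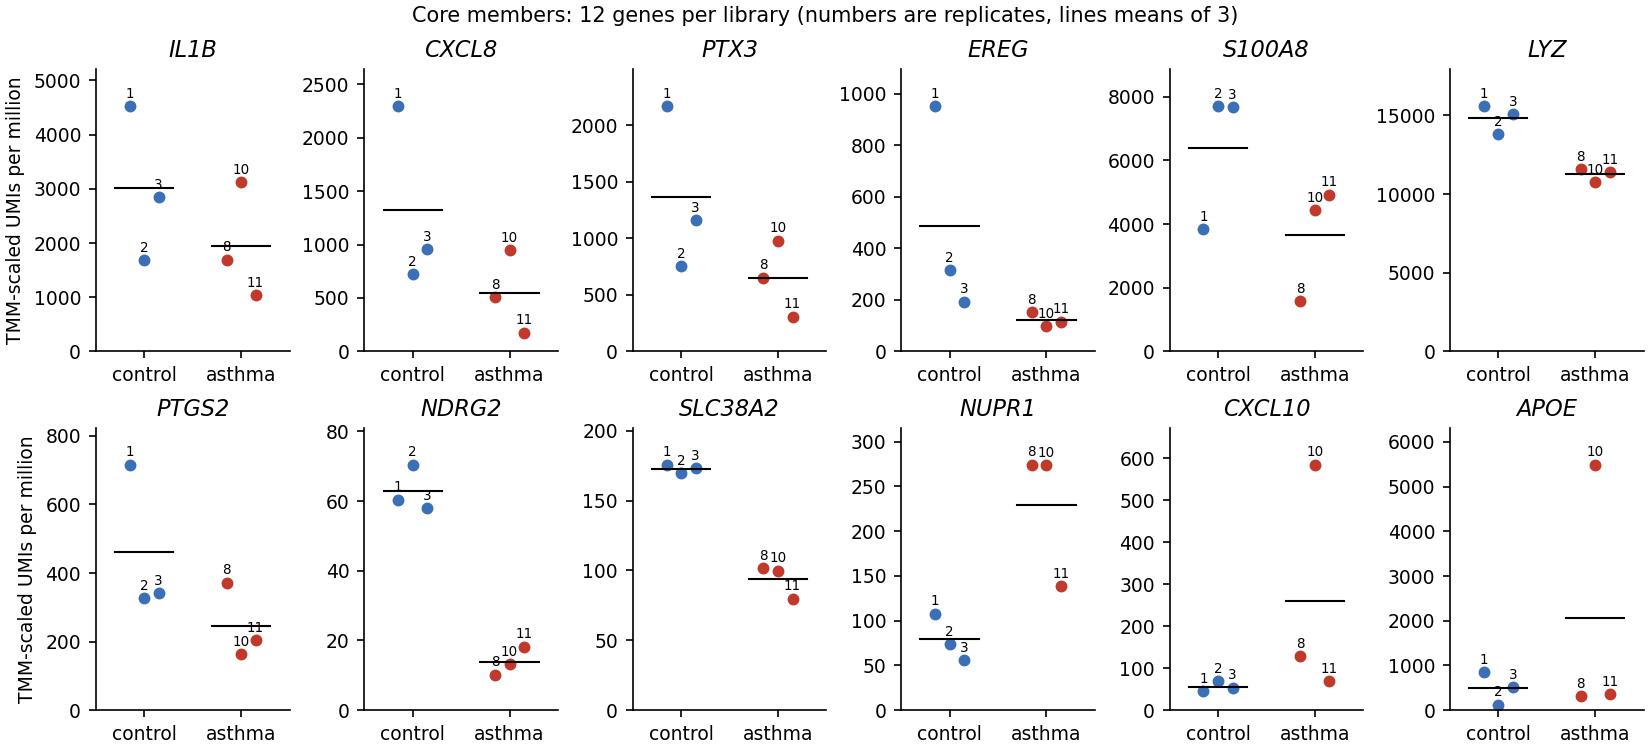
Scaled CPM of 12 genes summed over the core members (vertical axes, linear and from 0) in the control and asthma libraries (horizontal axes), with the replicate number at each point and a line at the mean of 3. IL1B, CXCL8, PTX3, S100A8, PTGS2 and APOE overlap between the groups, while LYZ, EREG, NDRG2, SLC38A2, NUPR1 and CXCL10 do not.

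The gene lists showed no called gene in either direction in core members, out of 205 entries tested over 16 lists, and they are described by their median log2 fold change beside the median of 0.0013 over all 6817 genes. The medians of the lists of receptors and adhesion molecules lay within 0.2 of that median, while single genes in them lay further away. The colony-stimulating factor and chemokine receptors had a median of 0.001 over 14 genes. The median was -0.16 over 12 genes for the pattern and danger receptors. For the Fc receptors and adhesion molecules it was -0.02 over 11 genes. Among their most abundant members, CSF1R, the receptor of the growth factor that sustains monocytes, stood at 404, 325.5 and 418 scaled CPM in controls and 309, 323.5 and 341 in asthma. TLR4, the receptor for lipopolysaccharide, stood at 169, 163 and 209 scaled CPM in controls and 207, 249.9 and 198 in asthma. The groups overlapped in both. FCER1G, the signalling chain of Fc receptors, stood at 1727, 2028 and 1862 scaled CPM in controls and 1822, 1944 and 1889.9 in asthma, within a narrow range. CXCR4, a receptor for the chemokine CXCL12, stood at 201, 177 and 184 scaled CPM in controls and 185, 316 and 304 in asthma. The classical monocyte identity list had a median of -0.23 over 16 genes, and EREG, LYZ and MNDA were its 3 genes, of 16, whose asthma libraries all lay below the controls, beside 5.91% of all genes. The lists were chosen with results of these data known, so that share is a description.

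Secreted factors and their feedback genes had medians on both sides. The neutrophil-attracting chemokines had a median of -1.31 over the 3 genes tested (CXCL1, CXCL3 and CXCL8), with CXCL3 at 634, 91.97 and 219 scaled CPM in controls and 294.5, 131.5 and 27.8 in asthma. CXCL1 stood at 32.5, 20.8 and 12.4 scaled CPM in controls and 8.12, 2.63 and 5.71 in asthma in core members (log2 fold change -1.92) and at 40.9, 24.6 and 11.9 in controls and 65.03, 1.85 and 5.86 in asthma over all members (-0.19), where asthma 8 was the highest library and the groups overlapped. In asthma 8 and asthma 10 the CXCL1 level of core members rested on few UMIs, as did that over all members in asthma 10. The median of the list over all members was -0.90. The inflammatory cytokines had a median of -0.03 over 12 genes, in a range of -0.93 to 0.31, with TGFB1, a cytokine of tissue repair, at 250.03, 273 and 341 scaled CPM in controls and 355.5, 331 and 311.5 in asthma. The NF-kB feedback and target genes had a median of -0.27 over 17 genes, and of -0.53 to 0.085 with each library left out. NFKBIA, the inhibitor that NF-kB induces, stood at 1565, 1324 and 2045 scaled CPM in controls and 1429.95, 2551.5 and 773 in asthma. The immediate-early genes had a median of -0.01 over 21 genes. FOS, a subunit of the AP-1 transcription factor, stood at 2695.5, 3649 and 4717 scaled CPM in controls and 3603, 4900.5 and 1824 in asthma, lowest in asthma 11 and highest in asthma 10, so the extremes lay within the asthma group. Clotting, matrix and tissue repair genes had a median of -0.07 over 20 genes, and FN1, the matrix protein fibronectin, stood at 911, 1686 and 1014 scaled CPM in controls and 977, 2573 and 982 in asthma. The eicosanoid and leukotriene pathway had a median of 0.22 over 10 genes, and of -0.14 without asthma 10, with LTA4H, the enzyme that forms leukotriene B4, at 94.8, 157 and 128.5 scaled CPM in controls and 144, 318 and 90.996 in asthma.

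Antigen presentation, interferon response and metabolism also showed no called gene. The MHC class II presentation list had a median of 0.05 over 10 genes, and of -0.20 to 0.03 with each library left out. CD74, the invariant chain, stood at 3604, 4469 and 5574 scaled CPM in controls and 5801, 4672 and 4249.7 in asthma. The interferon-stimulated genes had a median of 0.25 over 17 genes, and of -0.04 to 0.61 with each library left out. IFI6, an antiviral gene of that list, stood at 75.3, 95.6 and 207 scaled CPM in controls and 290.5, 318 and 134.5 in asthma. GBP1, a GTPase of the interferon response, stood at 455.5, 412 and 691 scaled CPM in controls and 965, 308 and 134 in asthma, highest in asthma 8 and lowest in asthma 11. The glycolysis and hypoxia response list had a median of -0.10 over 16 genes, and the heat shock proteins and chaperones -0.19 over 11 genes. The monocyte and lymphocyte chemokines had a median of 0.65 over 5 genes, and of -0.27 without control 2. The list with the highest median, 1.19 over 10 genes, was alternative activation and macrophage scavenging, and it rested on asthma 10. APOE stood at 852, 124 and 512 scaled CPM in controls and 317, 5487 and 363 in asthma. MRC1, the mannose receptor of macrophages, stood at 138.5, 12.2 and 86.2 scaled CPM in controls and 79.2, 484 and 36.04 in asthma. Without asthma 10 the median of the list was -0.36. Over all members 5 of the 16 medians had the opposite sign. They were 0.24 for the clotting, matrix and tissue repair genes (22 genes), -0.16 for MHC class II presentation (10 genes), -0.14 for the eicosanoid and leukotriene pathway (11 genes), 0.02 for the inflammatory cytokines (12 genes) and 0.01 for the pattern and danger receptors (12 genes).

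**Figure D5:**
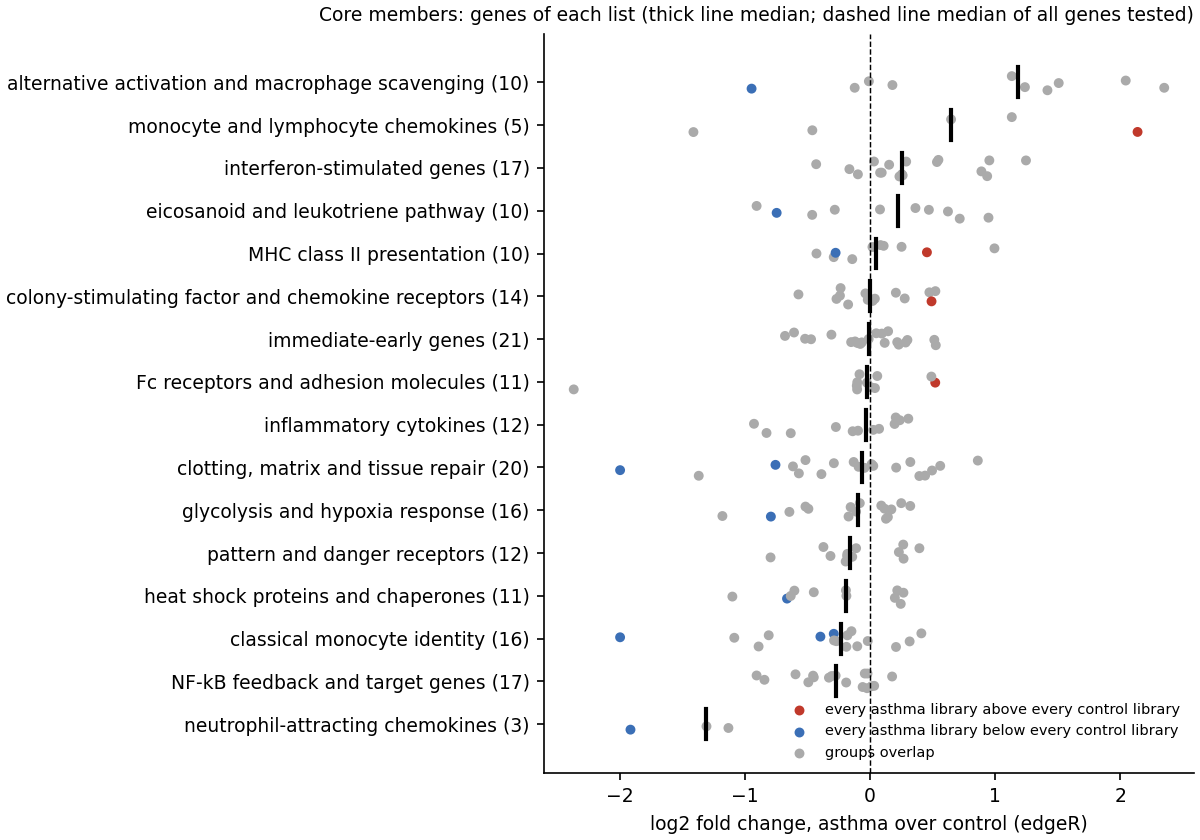
Log2 fold change of asthma over control in core members (horizontal axis) for each gene tested in the 16 lists (vertical axis, number tested in parentheses), with a thick line at the list's median and a dashed line at the median of all genes. Most lists are centred near 0, the macrophage list lies to the right and the neutrophil-attracting chemokines to the left, and no single gene passed the test.

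Markers of other cell types in the core members differed between libraries, and their sums are given without TMM scaling. The alveolar macrophage markers summed to 443, 101 and 288 CPM in controls and 326, 1255 and 378 in asthma, with 10 of the 10 genes with a symbol detected and CHIT1 the most abundant. Asthma 10 stood above all other libraries. C1QB, MARCO and FABP4, which the rule limited, were at 19.6, 2.46 and 4.91 CPM there. C1QA, which the rule also limited, was at 120 CPM in asthma 10, above every other library. The neutrophil markers summed to 187, 183 and 205.5 CPM in controls and 139, 189 and 171 in asthma, with 6 of the 7 genes with a symbol detected and CSF3R the most abundant. The nonclassical monocyte markers summed to 1095, 396 and 653 CPM in controls and 784, 368 and 307 in asthma, of which VMO1, a gene limited by the rule, took the largest part, and control 1 was the highest. The B and plasma cell markers summed to 1245.5 CPM in control 1, 123 in control 3, 550.05 in asthma 11 and under 10 in the other libraries, nearly all of it JCHAIN, the joining chain of antibodies. The T and NK cell markers summed to 112.5, 90.9 and 662 CPM in controls and 45.05, 449 and 126 in asthma, with GZMB the most abundant and CD3D and CD3E at 0 by the rule. Dendritic cell markers summed to at most 49.999 CPM, mast cell markers to at most 85.7, and red cell and platelet markers to at most 3.55. The epithelial and mesothelial markers summed to 176, 62.5 and 45.7 CPM in controls and 143, 145 and 347 in asthma. The stromal and endothelial markers summed to 142, 212 and 226 CPM in controls and 317, 309 and 230.3 in asthma, with 5 of the 6 genes with a symbol detected and PECAM1, which monocytes also express, the most abundant. In these unscaled sums every asthma library lay above every control library, asthma 11 by too little to be read as a separation. PECAM1 was the only gene of the list tested in core members, and its groups overlapped (log2 fold change 0.49). The part of RNA from these cell types in the gene differences was not tested.

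When all 1457 members were summed, the genes higher in the asthma libraries with the smallest p and no overlap between groups included C3, CXCL12, PTGDS and A2M. C3 stood at 14.8, 7.97 and 3.18 scaled CPM in controls and 1072, 79.6 and 24.5 in asthma over all members. CXCL12, a chemokine of stromal cells, stood at 1.74, 1.33 and 4.77 scaled CPM in controls and 118, 9.26 and 31.03 in asthma. In both genes asthma 8 was far above the other libraries. PTGDS, the prostaglandin D synthase, stood at 5.23, 1.33 and 12.7 scaled CPM in controls and 306, 92.6 and 13.1 in asthma. A2M, a protease inhibitor of plasma and tissue, stood at 42.7, 8.64 and 9.54 scaled CPM in controls and 448, 418 and 44.5 in asthma. Asthma 8 was the highest library in each of these 4 genes, and none passed (edgeR adjusted p = 0.94 for C3). The stromal and endothelial markers summed to 342, 772 and 260.5 CPM in controls and 2805, 834 and 244.5 in asthma over all members. Among core members none of these 4 was among the 12 genes with the smallest p in that direction. Of the 12 genes lower in asthma without overlap that had the smallest p, 6 were common to both sums and the other 6 of each were not. The common genes were ANKRD28, IQCN, SLC38A2, BAIAP2, CCDC57 and EREG, with log2 fold changes over all members of -1.74, -2.10, -0.83, -1.22, -2.15 and -2.26, and since core members are the larger part of the UMIs of all members, the sums are not independent. Shallow members gave 51250 to 126483 UMIs per library and were not tested alone.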

How the data were processed

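The authors aligned the reads of 6 droplet libraries with Cell Ranger to macFas6 and deposited raw UMI counts (whole numbers, not normalized) for 35133 barcodes and 28623 genes, 21095 of them with a symbol. The submitters' processing notes name Cell Ranger 2.1.1 and the file headers name 4.0.0. Libraries held 40556102, 33210436 and 32240293 UMIs in controls and 41184329, 41489879 and 29014556 in asthma.

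Barcodes were kept with more than 500 and fewer than 5000 genes and a mitochondrial maximum of 25% in 13 genes, thresholds taken from the study's methods, and the number kept differs from the study's. Ambient RNA was not removed. Doublets by Scrublet score (0.8% of cells per 1000 in a library) were removed in an alternative only. The members and gene lists were chosen with earlier results of these data known, and the core, shallow and other deep members were defined after the counts of this set were seen.

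Counts were summed per library and tested across libraries with edgeR 4.0.16 (R 4.3.3, TMM, filterByExpr, quasi-likelihood test, Benjamini-Hochberg adjustment), and a call needed an adjusted p under 0.05 and a log2 fold change beyond 0.25 in size. DESeq2 1.42.0 was an alternative. P-values measure the spread between libraries, 1 per monkey. Shares were compared with two-sided exact permutation tests (scipy 1.17.1). The fit was tested on simulated data. Folds between classes were ranked with 10 CPM added. No gene named here shares its symbol with another row of the files.

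The genes named were the markers and the genes of the rule, up to 12 genes in each direction that were called or, failing that, had the smallest p among those whose groups did not overlap, the 3 most abundant of each list, the 10 most abundant genes and the 15 with the largest fold over other cells. Other genes named in the class comparisons were chosen after their values were seen. Alternatives are given in the closing section.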

Additional observations from a re-analysis of the deposited data

How the results depend on the processing

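The member share differed between the groups by -0.51 percentage points, and the sign turned with at least 1 positive marker (0.35). It was -1.07 with every cell thinned to 2000 UMIs, -2.10 of cells without CD3D and CD3E and -4.26 of the myeloid classes (core members -2.41 and -8.52). With each library left out it ranged from -2.38 without asthma 11 to 0.50 without asthma 10, and it was 0.23 without control 2 and 0.34 without asthma 8. For core members it ranged from -3.09 to 0.32, with 0.17 without asthma 8. No p fell below the 0.1 that the design allows.

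Over all members edgeR called 0 genes, DESeq2 called 3 higher and 3 lower, edgeR with no filter on low counts called 75 higher and 17 lower, and at least 3 positive markers gave 1 higher. In core members DESeq2 called 1 higher (NUPR1) and 2 lower (NDRG2 and ANKRD28), and edgeR with no filter called 62 higher and 55 lower. No filter or DESeq2 moved 36 fold changes of single genes past the threshold, among them EREG, S100A8, PTX3, CXCL8 and SLC38A2 in core members with no filter. The cause was not tested. With any library left out, edgeR called 0 genes in each direction in both sets. Fold changes were recomputed under the alternatives for 37 of the genes, and the sign turned in 5 of them, with 1 library left out. CFP turned without asthma 10, to 0.0117 over all and 0.0871 in core members (ranges -0.36 to 0.0117 and -0.31 to 0.0871). CXCL1 over all members (-2.39 to 0.47) turned without control 1, asthma 10 or asthma 11. THBS1 (-1.16 to 1.57 over all and -1.14 to 1.61 in core members) turned without control 1. MRC1 (-0.79 to 1.54 and -0.59 to 1.93) and, in core members, APOE (-0.54 to 2.69) turned without asthma 10. Of the recomputed list medians 57 moved by more than the spread between libraries and 535 did not, and 6 differences in shares of cells with a UMI moved so with thinning. No paired analysis was possible because the groups share no replicate numbers.

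Asthma 8 and asthma 10 held 57 and 48 core members, so their sums were the shallowest and their values the least precise. The part of low depth and of free RNA, which was not removed, in the genes of shallow members was not tested.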

Other observations

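The shallow members were high in a wider set of genes than the neutrophil genes named above. In levels over the 6 libraries together, shallow members first and core members second, CEACAM8, a surface antigen of neutrophil granules, stood at 132 against 0.82 CPM and MME, the peptidase CD10 of mature neutrophils, at 157 against 1.63 CPM. IL1R2 was at 362 against 19.6 CPM, and PHOSPHO1, a phosphatase, at 281 against 1.23 CPM. The interferon-induced genes IFIT1 and IFITM1 stood at 393 against 20.8 and 1211.5 against 25.9 CPM. Between libraries of shallow members IFIT1 ran from 56.04 to 1258 CPM, so its level over the libraries together depends on the library. SOD2, the mitochondrial superoxide dismutase that inflammation induces, reached 17431.5 CPM in shallow, 1459 in core and 12014 in neutrophil-type cells. Among the genes with the lowest fold in shallow members, each lower in all 6 libraries, HLA-DMA, which loads peptides on MHC class II, stood at 27.5 against 533 CPM, CPVL, a carboxypeptidase of monocytes and macrophages, at 19.7 against 476 CPM and FN1 at 96.4 against 1193 CPM. These levels follow a split by depth that was made after the data were seen, and no test is given.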
